A study of Drosophila melanogaster with 50 samples.

Results

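In ovaries of *Drosophila melanogaster* females in which the H3K9me2 demethylase Kdm3 was knocked down in the germline (*Kdm3* GLKD), 3466 peaks of H3K9me2 on the autosomes lay where no peak was listed for control sisters. They are the peaks on arms 2L, 2R, 3L, 3R and 4 of the *Kdm3* GLKD list that share not even 1 bp with a peak of the control list, and they are called new peaks here. They make up 3466 of the 7060 autosomal H3K9me2 peaks of *Kdm3* GLKD ovaries (49.1%) and of the 9564 peaks on all arms. On all arms together 4881 of 9564 peaks (51%) had no control counterpart, and on the X 1415 of 2504 (56.5%). The new peaks were chosen by the H3K9me2 peak calls of both genotypes, so that their H3K9me2 fold and their lack of a control peak are given as descriptions.

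*Kdm3* GLKD females carried a *Kdm3* germline knock down, driven in the study by a *nos*GAL4 transgene and a short hairpin RNA, and the controls were their sisters, labelled wild type for *Kdm3*. All transgenes were in a w1118 background. Ages are not given in the sources used here. H3K9me2 and H3K9me3 were immunoprecipitated from pools of dissected ovary pairs with 3 libraries for *Kdm3* GLKD and 3 for control sisters, and Rhino with 2 and 2. Each genotype had 1 input library for the histone marks and 1 for Rhino. Ovary RNA and small RNA gene tables cover 3 libraries of each genotype. Embryo RNA came from embryos of 3 to 5 hours, with 2 libraries from progeny of *Kdm3* GLKD females and 2 from progeny of *w* GLKD females. The driver is active in germ cells, while the ovaries held germline and somatic cells. In such bulk chromatin, fewer cells carrying a mark and less mark per cell cannot be told apart.

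Histone H3 methylated on lysine 9 marks heterochromatin, which in flies is concentrated around the centromeres, on chromosome 4 and over transposons. Methyl groups are placed there by enzymes such as Su(var)3-9, G9a and Eggless, and demethylases such as Kdm3 remove the dimethyl mark. In ovarian germ cells the HP1-like protein Rhino binds H3K9me3 at piRNA clusters and lets both strands be transcribed into precursors of piRNAs, the small RNAs that guide Piwi proteins to silence transposons. Coding genes on the chromosome arms mostly lack H3K9 methylation.

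On 4 of the 5 autosomal arms the new peak with the highest fold was centered on an exon, and the sequence there is shown for that reason. On the other arm it lay between genes. For 2L, 3L, 3R and 4, the 300 bases at the midpoint of the new peak with the highest fold are shown in dm6 on the plus strand, together with the midpoint of the new peak under the strongest Rhino peak of those arms. Capitals mark the letters GAGAG on either strand, a motif bound by GAGA factor, and CACACA on either strand, a simple repeat.
Strongest on 2L, in *cyst*, chr2L:19504632-19504931: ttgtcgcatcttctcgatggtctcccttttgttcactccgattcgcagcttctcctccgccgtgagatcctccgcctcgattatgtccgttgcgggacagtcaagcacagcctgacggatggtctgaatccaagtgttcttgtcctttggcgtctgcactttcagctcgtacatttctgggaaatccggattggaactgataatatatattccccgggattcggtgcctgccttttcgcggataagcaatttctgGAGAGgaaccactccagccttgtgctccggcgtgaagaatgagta
Strongest on 3L, in *CG13032*, chr3L:16674989-16675288: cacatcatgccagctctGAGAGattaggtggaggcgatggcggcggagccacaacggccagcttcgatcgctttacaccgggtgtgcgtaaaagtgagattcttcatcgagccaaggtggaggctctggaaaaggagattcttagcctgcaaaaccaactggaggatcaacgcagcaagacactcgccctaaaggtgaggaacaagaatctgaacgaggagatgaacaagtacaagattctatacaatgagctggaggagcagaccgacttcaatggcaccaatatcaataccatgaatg
Strongest on 3R, in *aux* and *CG31516*, chr3R:4219526-4219825: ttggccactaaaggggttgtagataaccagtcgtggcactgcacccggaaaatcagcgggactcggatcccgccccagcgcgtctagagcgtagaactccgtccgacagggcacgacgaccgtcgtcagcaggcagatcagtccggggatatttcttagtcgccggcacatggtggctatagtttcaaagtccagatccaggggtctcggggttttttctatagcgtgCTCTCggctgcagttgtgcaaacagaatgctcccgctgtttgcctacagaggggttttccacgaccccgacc
Strongest on 4, in *zfh2*, chr4:530404-530703: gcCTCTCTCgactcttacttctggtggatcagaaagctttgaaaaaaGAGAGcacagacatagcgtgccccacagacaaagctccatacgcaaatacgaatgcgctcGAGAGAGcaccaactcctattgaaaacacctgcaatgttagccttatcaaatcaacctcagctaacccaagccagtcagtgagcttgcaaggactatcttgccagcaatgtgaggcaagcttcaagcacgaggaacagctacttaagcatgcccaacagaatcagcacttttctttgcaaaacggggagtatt
Under the strongest Rhino peak, in *Xrp1*, chr3R:18925863-18926162: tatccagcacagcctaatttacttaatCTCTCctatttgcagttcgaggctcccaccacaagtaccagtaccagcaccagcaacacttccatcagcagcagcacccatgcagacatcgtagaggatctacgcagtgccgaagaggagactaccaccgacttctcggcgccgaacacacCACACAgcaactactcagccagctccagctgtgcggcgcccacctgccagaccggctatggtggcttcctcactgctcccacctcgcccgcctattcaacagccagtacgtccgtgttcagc

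All 300 bases of the first 4 windows lay in annotated exons, and 86% of the window in *Xrp1*. None of the 5 windows held an annotated transposon. Their GC content was 51.7% in *cyst*, 50% in *CG13032*, 57.3% in *aux*, 47% in *zfh2* and 57% in *Xrp1*. The *zfh2* window held 5 matches to GAGAG and the other windows 1 each. In the middle 300 bases of all new peaks, GAGAG occurred in 1185 of 3466 (34.2%), against 33.2% of the other autosomal H3K9me2 peaks of *Kdm3* GLKD ovaries and 30.2% of all autosomal windows of that length. CACACA occurred in 18.6% of new peaks, against 16.5% of the other peaks and 21.2% of all windows. These motif shares were thus close to those of the autosomes at large.

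The files used here give a single list for each antibody and genotype. With nothing measured per library, neither tests over samples nor errors between libraries can be given, and all comparisons describe these lists. The 2 H3K9me2 lists differed in strength. The 7060 autosomal peaks of *Kdm3* GLKD ovaries had a median fold over input of 1.54 and a median -log10 q of 3.49, against 1.75 and 7.82 for the 2746 autosomal peaks of control sisters. Merged, they covered 29.6 Mb in *Kdm3* GLKD ovaries and 23.2 Mb in controls. The study states the depth of each library, but the lists carry no reads, so that the part of depth or enrichment in the number of new peaks was not tested. Among genes that mark the tissue, the 6 germline genes had ovary RNA base means of 606 to 17203 per kb of gene span and the 5 follicle cell genes 7.47 to 18355. The 10 genes of other tissues had 0.226 to 106 per kb, and none of the 21 genes was at 0.

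New peaks were weak, and they were narrow beside the other autosomal H3K9me2 peaks of *Kdm3* GLKD ovaries. Their median width was 1428 bp, with 80% of them between 323 and 5420 bp, against a median of 2844 bp for the others. Control autosomal peaks had a median of 1420 bp. By the rule the others overlap a control peak, and a wider peak has more bases that can do so. The part of the rule in this difference in width was not tested. Only 82 new peaks (2.37%) reached 10 kb, against 556 of the others (15.5%). These 82 peaks nevertheless held 14.4% of the 8106 kb in new peaks. The median fold over input was 1.47 for new peaks and 1.64 for the others, with medians of 2.64 and 4.78 for -log10 q. A fold of 2 was reached by 45 new peaks (1.3%) and by 432 others (12%), and a -log10 q of 5 by 579 new peaks (16.7%) and by 1694 others (47.1%). The lowest -log10 q of the list was 1.00, and 232 new peaks (6.69%) had a q above 0.05, against 77 of the others (2.14%).

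**Figure D1:**
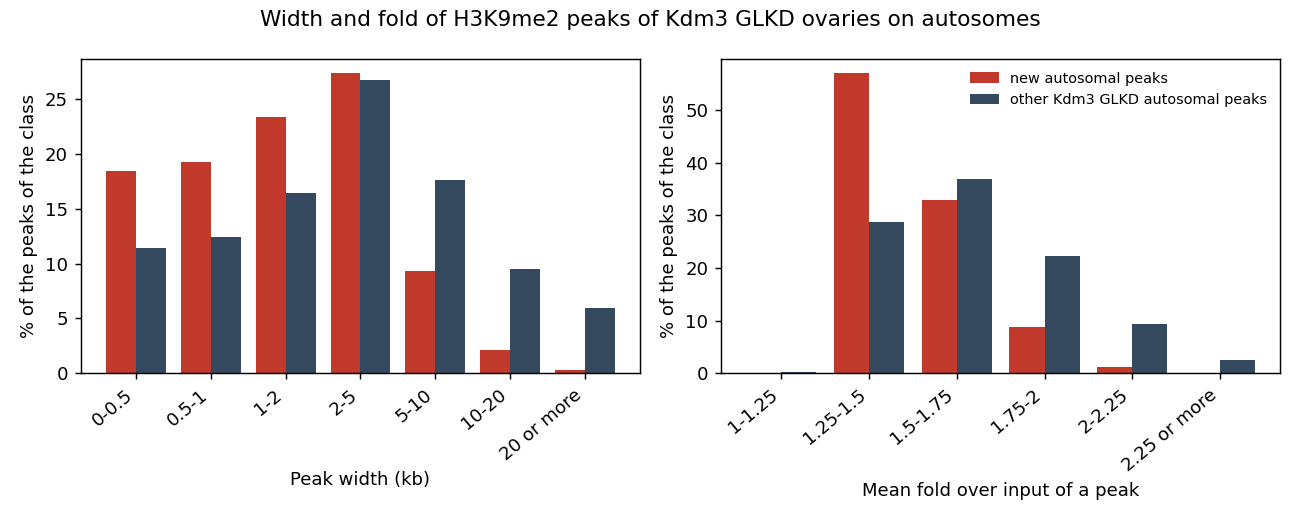
Share of peaks in each class of width (left, kb) and of fold over input (right) for the 3466 new autosomal peaks (red) and the 3594 other autosomal H3K9me2 peaks of *Kdm3* GLKD ovaries (dark). New peaks crowd the narrow and weak classes: 56.9% have a fold between 1.25 and 1.5, against 28.7% of the others.

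At the border of the rule, the new peaks closest to a control peak lay 1 bp, 7 bp and 9 bp from it, with folds of 1.43, 1.34 and 1.42. The peaks left out with the smallest control overlap shared 1 bp, 11 bp and 29 bp with it, with folds of 1.30, 1.77 and 1.32. Few members were close to this border: 198 new peaks (5.71%) lay within 1 kb of a control peak. The median distance to the nearest control peak was 9103 bp, and 53.8% of new peaks had a control peak within 10 kb, while 151 (4.36%) lay over 50 kb from any.

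All autosomal arms carried new peaks. Arm 3L had 1012, 2R 917, 2L 754, 3R 735 and chromosome 4 had 48. To set the arms side by side, the kb in new peaks were divided by the arm length outside control H3K9me2 peaks. By this measure 11.6% of 2R, 10.9% of 3L, 8.53% of 2L and 6.78% of 3R lay in new peaks, and 20.7% of the little such sequence of chromosome 4. Over all autosomes the value was 9.30%, against 23.7% on the X. New X peaks were also wider (median 1872 bp) and stronger (median fold 1.54) than new autosomal peaks.

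Many new peaks lay close to another, though this was not particular to them. The median gap between neighboring new peaks was 5179 bp, with the middle 50% of gaps between 1534 and 22077 bp. Median gaps were smaller among the other autosomal peaks of *Kdm3* GLKD ovaries (2749 bp) and among new X peaks (3274 bp). When new peaks at most 10 kb apart were joined, they formed 1356 runs. Of these, 594 were lone peaks holding 15.7% of the length, 581 held 2 to 4 peaks, 153 held 5 to 9, and the 28 runs of 10 or more peaks held 15.1% of the length. The 10 runs with the most bases in new peaks held 166 peaks and 668 kb, or 8.24% of the whole, and 5 of these 10 lay within 1 Mb of the pericentromeric heterochromatin of their arm.

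The pericentromeric block of an arm was taken as the stretch from its centromeric end through 100-kb windows of which control H3K9me2 peaks cover at least 50%. It ran over the last 1.4 Mb of the assembled 2L, the first 5.7 Mb of 2R, the last 5.1 Mb of 3L, the first 4.2 Mb of 3R and the first 1.3 Mb of chromosome 4. New peaks had little room inside these blocks, since control peaks already covered 93.2% to 98.4% of those of the 4 large arms and 68% of that of chromosome 4. Accordingly 75 new peaks (2.16%) touched a block, 44 of them on chromosome 4, against 1875 of the 3594 other peaks (52.2%).

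Right outside the blocks, new peaks were dense. In the first 0.25 Mb beyond the block they covered 47.5% of the sequence without control peaks, summed over 2L, 2R, 3L and 3R. The share was 33.1% from 0.25 to 0.5 Mb, 19.4% from 0.5 to 1 Mb, 22.8% from 1 to 2 Mb, 10.9% from 2 to 5 Mb, 8.30% from 5 to 10 Mb and 6.91% beyond. In the first 0.25 Mb, the 4 arms had 57% (2L), 49.4% (2R), 47.6% (3L) and 31.6% (3R), and beyond 10 Mb they had 4.86% to 8.10%. The arms were not alike in between: 2R dropped to 8.27% from 0.5 to 1 Mb, a stretch with 49.4% control cover, and had 30.0% from 1 to 2 Mb. On 3R the share was higher from 0.25 to 0.5 Mb (40.2%) than next to the block, and on 3L it was 11.9% there. On the X the share lay between 19.8% and 30.8% in all classes of distance, with 24.9% next to the block and 25% beyond 10 Mb.

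**Figure D2:**
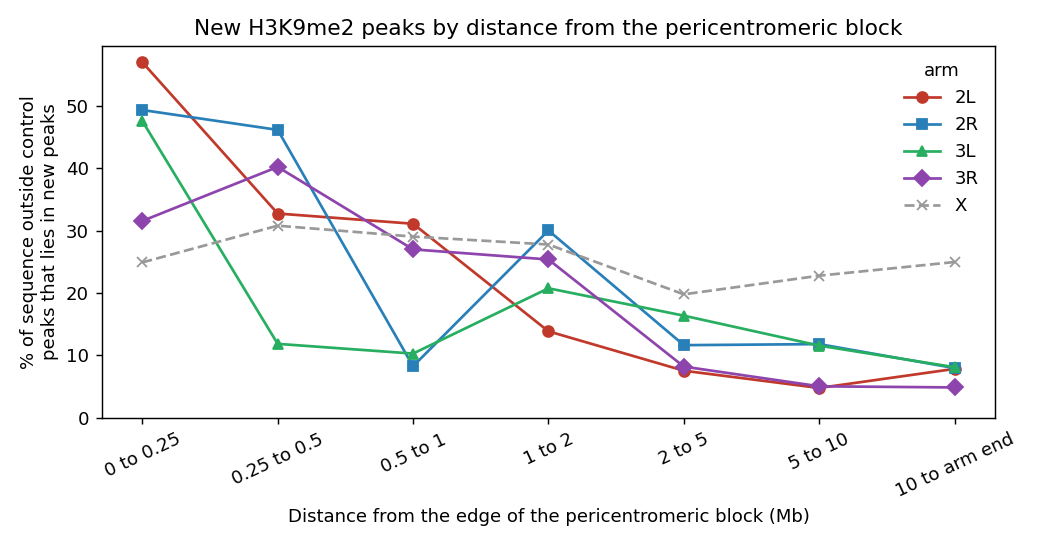
New H3K9me2 peaks along the arms. The y axis gives the percentage of sequence outside control peaks that lies in new peaks, for classes of distance in Mb from the edge of the pericentromeric block, with a line for each large autosomal arm and a dashed line for the X. The 4 autosomal arms reach 31.6% to 57% in the first 0.25 Mb and end between 4.86% and 8.10%, while the X stays between 19.8% and 30.8%.

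Although dense near the blocks, most new peaks were far from them, because the arms are long. The median distance to the block was 8.76 Mb, and 352 new peaks (10.2%) lay within 1 Mb, chromosome 4 included. The 277 new peaks within 1 Mb outside a block had a median width of 2050 bp and a median fold of 1.62, against 1396 bp and 1.46 for the 3114 peaks farther out. At the distal ends the last 0.5 Mb had a share of 29.4% on 3L, 21.5% on 2L, 18.2% on 2R and 11.4% on 3R, above the 6.91% for all sequence over 10 Mb from the block.

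The largest run lay on 2L from 21990984 to 22112013, 1699 bp from the block. Its 19 new peaks summed to 92044 bp, and H3K9me3 peaks of *Kdm3* GLKD ovaries covered 37.5% of its span. Its 13 protein-coding genes include *tio*, which encodes a zinc-finger protein related to the homeotic gene *tsh*. Next came a run on 2R from 5739546 to 5868138 with 23 new peaks and 86756 bp, over *dpr12*, *Gp210* and *Or42a*. No base of this run was in a control H3K9me2 peak. The third run, on 2R from 5957494 to 6083847, had 18 peaks and 84707 bp over *Src42A*, a tyrosine kinase, *mle*, the helicase of dosage compensation, and *BubR1*, a spindle checkpoint kinase. Away from the centromere, a run on 3L from 17955567 to 18038667, 4971560 bp from the block, put 19 peaks and 51951 bp on the single protein-coding gene *Eip75B*.

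New peaks lay in genes, and in particular in coding exons. Of the 3466 peaks, 3152 (90.9%) touched a gene and 2676 (77.2%) lay wholly inside genes, while 314 lay between genes. By length, 87.1% was inside genes, against 54.9% of the other autosomal peaks and 71.1% of the autosomal sequence outside all H3K9me2 peaks. Exons took 51.9% of the length of new peaks, against 13.3% in the other peaks and 29.2% in the sequence outside peaks. Coding sequence took 44.9%, against 9.35% and 17.5%. The start of a protein-coding gene fell in 459 new peaks. Per Mb there were 71.1 gene starts in new peaks, fewer than the 134 of sequence outside peaks and more than the 30.9 of the other peaks.

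**Figure D3:**
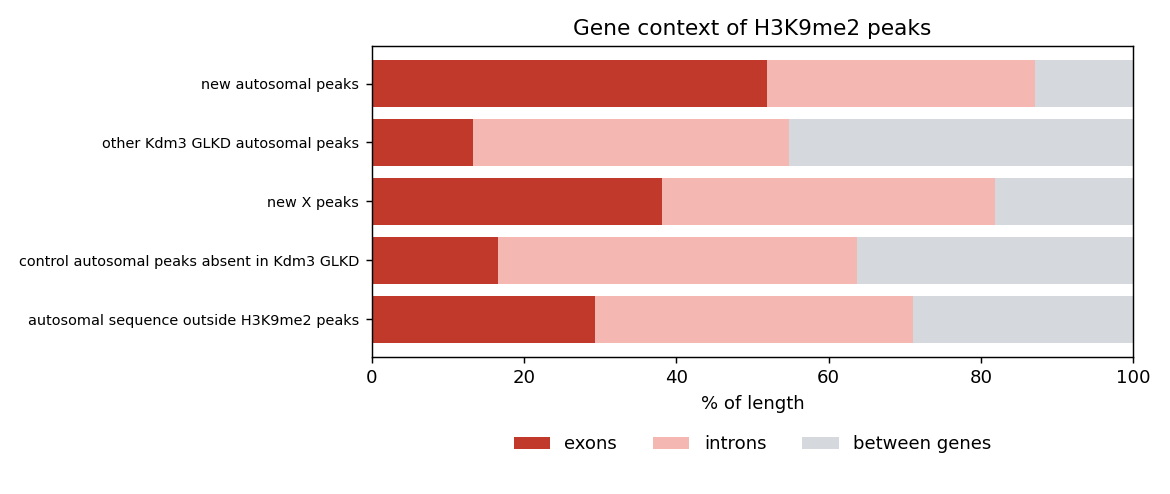
Share of peak length in exons (dark red), introns (pink) and between genes (grey) for 5 classes of sequence. New autosomal peaks have 51.9% in exons, new X peaks 38.1% and the other autosomal peaks of *Kdm3* GLKD ovaries 13.3%.

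The share of coding sequence was as large in the stronger new peaks. It was 43.4% for peaks with a fold under 1.5, 41.6% from 1.5 to 1.75, 53% from 1.75 to 2, and 57.1% for the 45 peaks with a fold of at least 2. In the other autosomal peaks it was between 3.95% and 12.4% in these same classes. Coding sequence took less of the new peaks within 1 Mb outside a block (27%) and of those with Rhino (21.7%). New peaks were richer in GC (46.9%) than the other autosomal peaks (42.3%) and the sequence outside peaks (42.1%). This held in exons, with 51.7% in new peaks, 48.3% in the other peaks and 47.3% outside, and in the rest of the sequence, with 41.7%, 41.4% and 40%. The 941 control autosomal peaks with no *Kdm3* GLKD counterpart had 37.9% GC and 9.16% coding sequence. Whether GC content had a part in where new peaks were called was not tested.

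Transposons took a small share of new peaks, slightly above that of the sequence outside all H3K9me2 peaks. Annotated copies took 1.09% of their length and touched 175 peaks (5.05%). In the sequence outside all peaks they took 0.776%. In the other autosomal peaks, which by the rule overlap control H3K9me2 peaks, they took 19.9% and touched 1408 (39.2%). The median distance from a new peak to the nearest annotated transposon was 17249 bp, against 3240 bp for the other peaks. The new peaks within 1 Mb outside a block had a larger share of transposons, 6.46% of their length.

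H3K9me3 accompanied a minority of new peaks, and wide and strong ones more often than narrow and weak ones. In *Kdm3* GLKD ovaries 617 new peaks (17.8%) touched an H3K9me3 peak, against 2977 of the other 3594 (82.8%) and 50.9% of all 7060. In control ovaries 41 new peaks (1.18%) did so. H3K9me3 was thus present in *Kdm3* GLKD ovaries and absent from the control list at 590 new peaks. The low control overlap was largely set by the rule. New peaks lie outside control H3K9me2 peaks, and in the study nearly all control H3K9me3 regions were also enriched in H3K9me2. The other peaks overlap control H3K9me2 by the same rule, so that the contrast with them is a description. By length, H3K9me3 took 16.7% of new peaks, against 74.7% of the others and 0.224% of the autosomal sequence outside all H3K9me2 peaks.

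The share with H3K9me3 went up with width. It was 1.72% under 0.5 kb, 3.00% from 0.5 to 1 kb, 7.29% from 1 to 2 kb, 28.3% from 2 to 5 kb, 59.8% from 5 to 10 kb and 80.5% for the 82 peaks of 10 kb and more. The other autosomal peaks had 69.9% even under 0.5 kb. By fold the share in new peaks was 3.6% under 1.5, 25.2% from 1.5 to 1.75, 71.3% from 1.75 to 2 and 88.9% from 2 on, against 74.8%, 77.5%, 93.5% and 98.8% of the other peaks. The gap between the classes was thus small among strong peaks and large among weak ones. The share of length in H3K9me3 was 1.35% under 0.5 kb, 13.8% from 2 to 5 kb and 30.5% from 10 kb on. A wider peak has more bases that can touch another peak. Width also went with strength: new peaks with a -log10 q of at least 5 had a median width of 3636 bp, against 1428 bp for all. The part of width or strength in these shares was not tested. Within 1 Mb outside the blocks 39.0% of new peaks had H3K9me3, against 15.7% farther out.

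**Figure D4:**
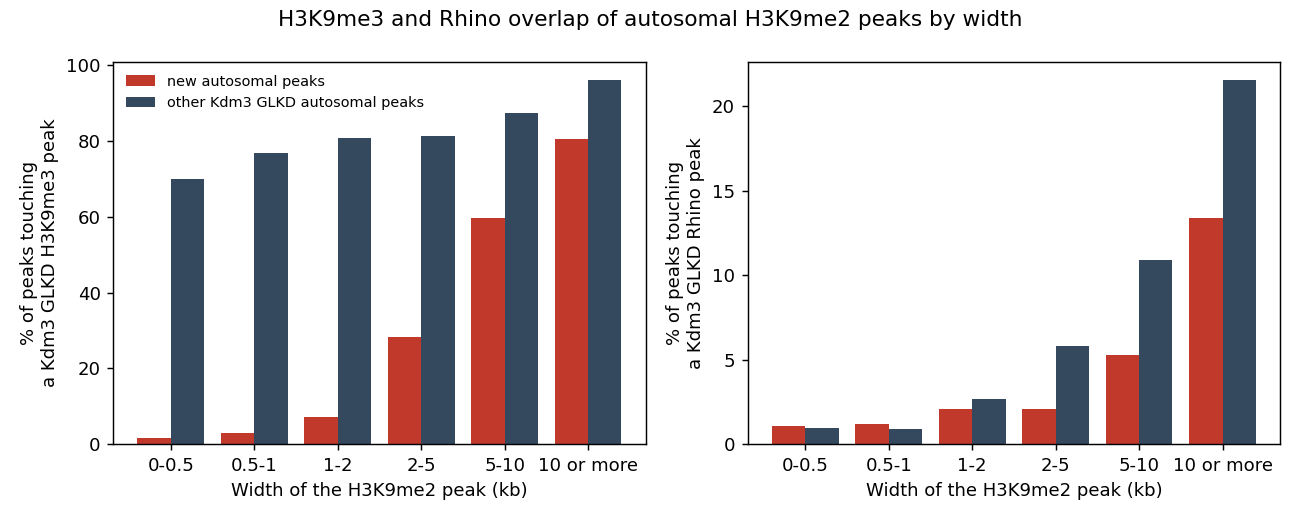
Percentage of H3K9me2 peaks that touch an H3K9me3 peak (left) or a Rhino peak (right) of *Kdm3* GLKD ovaries, by width in kb, for new autosomal peaks (red) and the other autosomal peaks (dark). H3K9me3 overlap of new peaks is 1.72% in the narrowest and 80.5% in the widest class, and Rhino overlap 1.10% and 13.4%.

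Rhino was found at few new peaks. In *Kdm3* GLKD ovaries 80 of 3466 (2.31%) touched a Rhino peak, against 269 of the others (7.49%), and 4.94% of all 7060. These shares went with width. Under 0.5 kb 1.10% of new and 0.978% of other peaks had Rhino, from 0.5 to 1 kb 1.2% and 0.899%, and from 1 to 2 kb 2.1% and 2.71%. Among wider peaks, new ones had Rhino less often than others. The shares were 2.11% and 5.83% from 2 to 5 kb, 5.26% and 10.9% from 5 to 10 kb, and 13.4% and 21.6% from 10 kb on. By length Rhino took 1.42% of new peaks, against 2.31% of the others and 0.130% of the autosomal sequence outside all H3K9me2 peaks. In control ovaries 1 new peak touched a Rhino peak. This too was largely set by the rule, since most control Rhino regions of the study were also enriched in H3K9me2. Of the 80 peaks, 45 also had H3K9me3 and 35 did not. Those with H3K9me3 and Rhino were close to the blocks, at a median distance of 0.264 Mb, and 30 of the 45 lay within 1 Mb. These values include chromosome 4, where all 48 new peaks lay within 1 Mb of the block. New peaks with H3K9me3 and no Rhino lay at a median of 6.93 Mb, and those with H3K9me2 alone, 2814 in number, at 9.18 Mb. By arm, 25 of the peaks with Rhino were on 3R, 19 on 2R, 14 on 2L, 13 on 3L and 9 on chromosome 4, where they were 18.8% of the new peaks. Conversely, 155 of the 1167 autosomal Rhino peaks of *Kdm3* GLKD ovaries (13.3%) touched a new peak, and 1 of these 155 overlapped a control Rhino peak.

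The strongest Rhino peak on new H3K9me2 had a fold of 4.16 and lay in *Xrp1* (3R, 18925122 to 18926622), which encodes a bZIP transcription factor of the stress response. The new H3K9me2 peak beneath it was of a common kind, 1125 bp wide with a fold of 1.46, with 796 bp in H3K9me3. Its 300-base midpoint is printed above. On 2L, 3 further strong Rhino peaks, with folds of 3.61, 3.34 and 3.13, sat in 1 new peak of 17642 bp (21832587 to 21850228), which begins in *tsh*, a zinc-finger gene that gives trunk segments their identity. Rhino peaks with folds of 3.57 and 3.43 lay on a new peak of 11495 bp over *opa*, a zinc-finger gene of the pair-rule class, on 3R (4857205 to 4868699). A Rhino peak with a fold of 3.04 covered the nearby *laf*, where the new peak of 8531 bp had a fold of 1.41 and no H3K9me3. On chromosome 4, beyond its block, Rhino peaks with folds of 3.42 and 3.22 lay on new peaks of 4334 and 3823 bp that were covered whole by H3K9me3 and held no gene. Another of the 10 strongest, with a fold of 3.09, lay in *jar*, the myosin VI gene.

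The widest new peak of all, 30302 bp on 2R (5810021 to 5840322), lay in *dpr12*, an immunoglobulin-domain gene of neurons, 0.11 Mb from the block. It had a fold of 1.63 and 3357 bp in H3K9me3, and 0.102% of it was exon. On 2L the widest had 24905 bp (21762636 to 21787540), over *CG31612* and *CG11630*, with a fold of 1.87, 10368 bp in H3K9me3 and 5984 bp in Rhino peaks. On 3L it had 19682 bp (1443226 to 1462907) in *Ptp61F*, a protein tyrosine phosphatase gene, and *lncRNA:CR44842*, a noncoding RNA gene, with 816 bp in Rhino peaks and none in H3K9me3. On 3R it had 19594 bp (30579314 to 30598907) over 5 genes, *Rpt6R*, a proteasome subunit gene, among them. On chromosome 4 it had 11144 bp (515350 to 526493) in *zfh2*, a zinc-finger homeodomain gene. Exons took 10.1% of the widest peak of 3L, none of it from *Ptp61F*, and 49.9% of that of 3R.

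The 10 strongest new peaks were 1744 to 13378 bp wide, and those in genes had 54.3% to 94.7% of their length in exons. New peaks with a fold of at least 2 had a median width of 3627 bp, against 1428 bp for all new peaks. The highest fold was 2.26, for a peak of 2133 bp on 3R (4218610 to 4220742) in *aux*, the auxilin gene of clathrin uncoating, and *CG31516*, 0.0186 Mb from the block, with 71.3% in exons. The second was 2.24 for 2151 bp on 3L (16674064 to 16676214) in *CG13032*, 6.33 Mb from the block, with 94.7% in exons. Of the other 8 of the 10 strongest, 6 lay in genes, among them *Wnk*, a kinase gene, *wech*, a TRIM-family gene, *zye*, and *Cdep*, a RhoGEF gene. The 2 without a gene, one of them the strongest of its arm, lay on 2R at 0.0415 and 0.0477 Mb from the block, with folds of 2.12 and 2.11, and both carried H3K9me3 and Rhino. All 10 carried H3K9me3, over 1402 to 11709 bp, and 3 lay on 2R, 4 on 3L and 3 on 3R.

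In all, 2902 of the 15351 annotated autosomal genes (18.9%) had at least 1 bp in new peaks, and 1328 (8.65%) had at least 50% of their span in them. Protein-coding genes were touched more often, 2593 of 11749 (22.1%), than noncoding RNA genes (276 of 2778, 9.94%), pseudogenes (20 of 194), snoRNA genes (7 of 238) and tRNA genes (6 of 266). None of the 96 rRNA and 30 snRNA genes was touched. Of the 390 genes wholly inside new peaks, 231 were protein-coding and 139 noncoding RNA genes.

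The genes with the most bases in new peaks were long. *Ptp61F* (FBgn0267487) on 3L had 57.8 kb in 8 new peaks, 43.5% of its span and none of it exonic, with 7 Rhino peaks and 0.297 kb of H3K9me3. *Eip75B* (FBgn0000568), an ecdysone-induced nuclear receptor gene, had 53.4 kb in 20 new peaks, with no Rhino. *bbg* (FBgn0087007), a PDZ-domain gene, had 44.8 kb in 15 new peaks. On 2R, *dpr12* (FBgn0085414) had 47.9 kb or 85.4% of its span, *Dscam1* (FBgn0033159), a neuronal cell-surface receptor gene, 38.5 kb or 60.2%, and *Sdc* (FBgn0010415), the syndecan gene, 35.6 kb or 40.2%. On 3R, *mtd* (FBgn0013576) had 40.6 kb, *heph* (FBgn0011224), an RNA-binding protein gene, 30.5 kb, and *Cdep* (FBgn0265082) 27.6 kb, of which 15 kb exonic and 12.6 kb also in H3K9me3. On 2L, *CG31612* (FBgn0051612) had 27.5 kb or 82.9% with 14 Rhino peaks, followed by *mtgo* (FBgn0259735) with 22.0 kb and *lilli* (FBgn0041111) with 21.6 kb. On chromosome 4, *zfh2* (FBgn0004607) had 18.9 kb with 7 Rhino peaks, *bt* (FBgn0005666), a titin-like muscle gene, 9.85 kb and *dati* (FBgn0262636), a zinc-finger gene, 6.24 kb.

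Gene lists are set beside all autosomal protein-coding genes, of which 22.1% were touched and 9.36% covered by at least 50%, with 9.60% of their summed span in new peaks. The touched share went with length, from 11.1% under 2 kb over 21.9% from 2 to 5 kb, 38.4% from 5 to 10 kb and 46.6% from 10 to 30 kb to 52.8% beyond, among genes listed in the ovary tables. Of 14 segment polarity genes 5 were touched, with 16.3% of the summed span: *fz*, a Wnt receptor gene, had 30.3 kb in 18 new peaks, *arr*, its co-receptor, 16.2 kb, *fz2* 13.6 kb and *ptc*, the Hedgehog receptor gene, 5.71 kb with 4 Rhino peaks. Of the 9 genes put on the pair-rule list 2 were touched, *Ten-m* with 12.2 kb and *opa* with 11.5 kb. Of 11 gap genes 2 were touched, *hb* with 3.85 kb and *Kr* with 2.14 kb. Of 8 Hox genes 3 were touched, *lab* (2.37 kb, 2 Rhino peaks), *Antp* (2.12 kb) and *pb* (0.404 kb), and 1.45% of the summed span lay in new peaks. None of 11 NK-type homeobox genes was touched, and 1 of 6 Wnt ligand genes, *Wnt4*, was. Of 6 LIM-homeodomain genes 2 were touched, *Lim3* with 12 kb and *ap* with 2.02 kb, and of 6 T-box genes 2, with 0.471 kb in all.

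Genes that work in the germline were also among them. Of 28 maternal axis and germ plasm genes 12 were touched (42.9%) and 5 had at least 50% of their span in new peaks (17.9%). Their median span was 8.66 kb, and 38.4% of all protein-coding genes of 5 to 10 kb were touched. The most bases were in *pum*, a translational repressor gene, with 24.5 kb or 14.3% of its long span, *BicD*, a dynein adaptor gene, with 8.42 kb or 61.9%, *tud*, which encodes the founding Tudor protein of the germ plasm, with 7.48 kb or 77.9%, and *bru1*, whose product represses *osk* translation, with 7.30 kb or 5.27%. Of 37 piRNA pathway genes 8 were touched (21.6%), close to the 22.1% of all protein-coding genes. Besides *tud* these include *SoYb*, with 85.4% of its span, *spn-E*, an RNA helicase gene, with 45.0%, and *Nxf3*, an export factor gene of piRNA precursors, with 37.6%. Of 19 Polycomb group genes 5 were touched, among them *jing* with 9.17 kb and 2 Rhino peaks, *Asx* with 5.60 kb, and *Su(z)2* with 3.00 kb, 1 Rhino peak and 2.40 kb of H3K9me3.

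Families of compact genes are set beside the 11.1% of all protein-coding genes under 2 kb that were touched. Of these families, 1 of 78 ribosomal protein genes was touched, *RpL22-like*, a paralog of *RpL22* that lay wholly in a new peak, and 2 of 68 oxidative phosphorylation genes, *ND-15* and *ATPsynbetaL*. None of 10 chorion and vitelline membrane genes was touched. Of 54 gustatory receptor genes 8 were touched (14.8%) and 7 by at least 50%, with 14.4% of the summed span. The corresponding counts were 7 (13.5%) and 4 of 52 odorant receptor genes, 4 (7.27%) and 3 of 55 ionotropic receptor genes, 11 (9.73%) and 3 of 113 cuticle protein genes, and 4 and 4 of 16 Jonah protease genes. Ribosomal protein genes had a median span of 1.29 kb and gustatory receptor genes one of 1.38 kb. Other lists hold longer genes and are set beside protein-coding genes of like length. Of 16 nicotinic receptor and channel genes (median span 35.6 kb) 5 were touched (31.25%), against 52.8% of genes from 30 kb on. New peaks took 1.37% of the summed span of this list. Of 37 neuropeptide genes (median span 2.11 kb) 11 were touched (29.7%), with 7.31% of the summed span. Of 14 proneural and other tissue-specific bHLH genes (median span 2.91 kb) 6 were touched (42.9%). The touched share of all protein-coding genes from 2 to 5 kb was 21.9%. The bHLH genes *ato* and *cato*, regulators of sense organ formation, lay wholly in new peaks.

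*Kdm3* itself (FBgn0037703, 3R, 9516007 to 9520938) carried a new peak over 2.57 kb, 52.2% of its span and all of it exonic, with a fold of 1.72 and with neither H3K9me3 nor Rhino in the part within *Kdm3*. The overlapping gene *CG8176* (FBgn0037702) begins at the same base and shares the peak, which took 7.79 kb of it, 2.24 kb of that in H3K9me3. The peak cannot be assigned to either gene. The ovary RNA base mean of *Kdm3* was 302, a mean over both genotypes that cannot show the knockdown, and reads of 2 overlapping genes may not be told apart. *AGO1* on 2R, in an intron of which the study's *BX2* transgenes are inserted, had 2 new peaks with 4.07 kb in all.

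Ovary levels of covered genes are given as the base mean, the mean normalized count over the 6 libraries of both genotypes, per kb of gene span. The 2863 listed genes touched by new peaks had a median ovary RNA level of 53.7 per kb, against 11.2 for the 12079 genes with no base in them. Genes at 0 made up 2.48% of the touched and 15.5% of the untouched genes. Touched genes were longer, with a median span of 4.03 kb against 1.37 kb. Genes with at least 50% of their span in new peaks had a median span of 2.03 kb and a median level of 17 per kb, near the 16.2 of all autosomal genes. In RNA of 3- to 5-hour embryos, pooled over progeny of *Kdm3* GLKD and of *w* GLKD females, the medians were 37.1 per kb for touched and 14.7 per kb for untouched genes.

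Within classes of span the order depended on length. Among protein-coding genes under 2 kb, touched ones had a median ovary RNA level of 6.49 per kb and untouched ones 13.5. From 2 to 5 kb the medians were 219 and 257, from 5 to 10 kb 369 and 183, from 10 to 30 kb 160 and 23.03, and from 30 kb on 51.6 and 7.77. Touched genes thus had the lower median among short genes and the higher one among genes over 5 kb. By level, 4.44% of protein-coding genes at 0 were touched, 14.2% of those up to 1 per kb, 24.7% from 1 to 10, 34.4% from 10 to 100, 28.0% from 100 to 1000 and 12.1% above 1000. Cover of at least 50% of the span was most frequent from 1 to 10 per kb, at 14.5%, and was 4.94% above 1000 per kb.

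**Figure D5:**
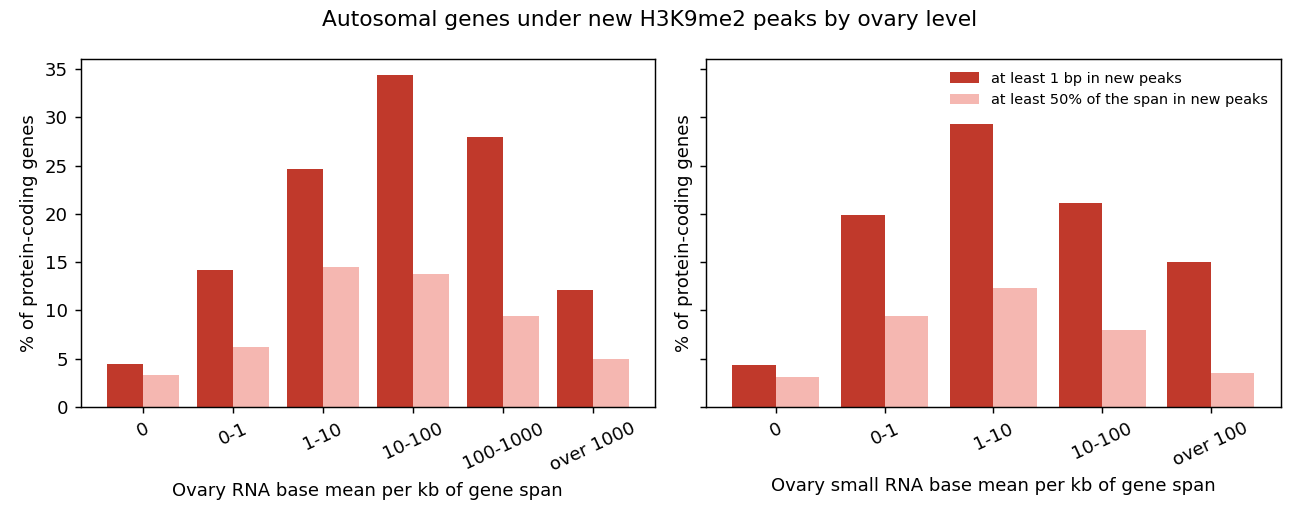
Percentage of autosomal protein-coding genes with at least 1 bp (dark red) or at least 50% of their span (pink) in new peaks, by ovary RNA (left) and ovary small RNA (right) base mean per kb of gene span. In both panels the middle levels have the largest shares: 34.4% at 10 to 100 per kb for RNA and 29.3% at 1 to 10 per kb for small RNA, against 4.44% and 4.34% for genes at 0.

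Taken over all spans, ovary small RNA levels were likewise higher for touched genes, which were also longer. The median was 3.69 per kb for touched genes, against 1.34 for genes with no base in new peaks, and 3.88% against 24.2% of the genes were at 0. Genes covered by at least 50% had a median of 2.88. Among genes under 2 kb, touched and untouched ones had medians of 1.57 and 1.83, and from 30 kb on 4.40 and 1.88. The small RNA level differed with the other marks. Genes were grouped by the new peaks that touch them, and a gene can stand in more than one group. The 85 genes touched by new peaks with Rhino had a median of 11.5 per kb, with the middle 50% between 5.56 and 32.1. The 761 genes under new peaks with H3K9me3 and no Rhino had 5.24, and the 2207 genes under new peaks with neither 3.01. Ovary RNA of these groups had medians of 17, 159 and 43.4 per kb.

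Of the genes covered by at least 50%, those with the most small RNA were *alphaTry* with 901 per kb, *betaTry* with 869, *nxf2* with 362, *epsilonTry* with 212 and *laf* with 162. The trypsin genes *alphaTry*, *betaTry* and *epsilonTry* are neighbors and paralogs on 2R, shared a new peak, each had 1 Rhino peak in it, and had little ovary RNA, 10.6 to 33.4 per kb. By the study's description, small RNA on genes was counted from unique mappers of piRNA length. Reads alike in such close paralogs may thus be missing, and the values of these genes are uncertain. *nxf2*, which encodes a partner of Panoramix in Piwi-guided silencing, had 643 per kb of ovary RNA and neither Rhino nor H3K9me3 in its new peak. *laf* had 25.0 per kb of ovary RNA. The genes with the most ovary RNA were *Act42A*, a cytoplasmic actin gene, with 6278 per kb, *RnrL*, the large subunit of ribonucleotide reductase, with 4413, *CG13083* with 3890, *Mgtor*, a nuclear pore basket gene, with 3069, and *muskelin* with 3029. Their small RNA levels were 20.2 to 44.2 per kb, and of these 5 only *Mgtor* had H3K9me3 in its new peak, over 5.19 kb. Among the genes with the widest cover, *dpr12* and *Dscam1* had ovary RNA levels of 0.595 and 1.74 per kb, and *mtd* had 170 per kb together with 142 per kb of small RNA.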

How the data were processed

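*Kdm3* GLKD and control ovaries were profiled by ChIP-seq for H3K9me2, H3K9me3 and Rhino and by sequencing of long and small RNA, and embryos of 3 to 5 hours by RNA-seq. Per the study's methods and processing notes, the authors mapped ChIP reads with BWA (0.7.17.4) to dm6 without Y, unplaced and mitochondrial sequence, removed PCR duplicates with Picard (2.18.2.1) and called peaks against input with MACS2 (2.1.1.20160309.6), in broad mode for the histone marks and narrow mode for Rhino. The deposited lists hold 1 set of peaks per antibody and genotype, with the fold over input (a ratio) and the -log10 of the q-value for each peak. How the libraries were combined into 1 list is not given in the sources used here. The study states a read depth for each library, but the peak lists carry none, and no scaling for depth was made here. The deposited gene tables come from Bowtie and DESeq2, and their base mean is a signal that averages size-factor scaled counts across the libraries of both genotypes, not divided by gene length. Their fold changes, standard errors, test statistics and p-values are the authors' own comparisons and were not used. Small RNA tables of embryos were not used here.

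Peaks were compared by overlap of at least 1 bp with Python (3.11.15), numpy (2.4.6), pandas (2.3.3) and scipy (1.17.1), using the dm6 sequence and its gene and transposon annotation. Overlap counting was tested on 20 simulated sets of intervals with known answers. Gene spans were used for base mean per kb. Pericentromeric blocks ended before 3 windows of 100 kb in a row with under 50% control H3K9me2 cover. Of 17875 gene IDs in the ovary tables, 17620 were found on the 6 arms. Without values per library no test, p-value or error between replicates could be given. Genes were named by rule: the 3 protein-coding genes of each arm with the most bases in new peaks, those under the 10 strongest new peaks and under the 10 strongest Rhino peaks on new peaks, up to 4 members of each gene list by bases in new peaks, and the 5 with the highest RNA and the 5 with the highest small RNA per kb among genes covered by at least 50%. *Kdm3*, *CG8176* and *AGO1* were added as genes of the study. Members, lists and comparisons were chosen with earlier results of these data known. Alternatives varied peak strength, the definition of new, overlap, block limits, run gaps and the scaling of base means.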

Additional observations from a re-analysis of the deposited data

How the results depend on the processing

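Of 77 values of 12 results under 14 other settings, 34 kept within their limits and 43 moved. For counts and total length the limit was a fixed ratio to the main value. For medians and shares it was a 95% interval that treats peaks or genes as independent, although neighbors need not be. These limits only sort the settings and measure no error between libraries. With *Kdm3* GLKD H3K9me2 peaks of -log10 q of at least 5, 579 new peaks remained, with 2742 kb, a median width of 3636 bp, 389 runs and 771 genes, 62.9% with H3K9me3, 5.87% with Rhino, a median distance to the block of 4.79 Mb, and median gene levels of 69.1 (RNA) and 4.58 (small RNA) per kb. With a fold of at least 2, the same measures were 45 peaks, 256 kb, 3627 bp, 41 runs, 63 genes, 88.9%, 15.6%, 1.81 Mb, 14.5 and 7.58 per kb, and 1.95% of the length lay in blocks. The share of length inside genes was 86.4% and 87.0% under these 2 settings. When peaks with under 50% of their length in control peaks counted as new, the length was 13410 kb, the median width 1822 bp, H3K9me3 24.4%, Rhino 3.29%, the length inside genes 83.8%, and the gene levels 31.7 and 3.23 per kb. Against control peaks of -log10 q of at least 5 only, H3K9me3 was 19.8%, the length inside genes 85.6% and the RNA level 43.7 per kb. With at least 50% of a new peak covered, H3K9me3 was 7.59% and Rhino 0.808%, and with H3K9me3 and Rhino peaks of -log10 q of at least 5, 4.56% and 1.62%. Block windows of at least 25% or 75% control cover put 5.87% or 0.333% of the length in blocks. With at least 50% of the gene covered, 1328 genes remained, with 17.0 and 2.88 per kb. Genes above 0 had a median small RNA level of 3.97 per kb, and without division by length the base means were 355 (RNA) and 16.7 (small RNA). The cause of these moves was not tested, apart from the smaller number of peaks under stricter settings.

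No paired analysis was possible because the lists and tables hold 1 value per peak or gene for all libraries, and for the same reason no replicate could be left out. The lists do not show how far below the calling threshold a site without a control peak lay. The number of new peaks depended on the strength asked of them, with 45 at a fold of at least 2 and 3466 in all. Base means pool both genotypes and show no difference between them.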
